A study of Mus musculus with 12 samples.

Results

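The interferon response and antigen presentation genes of the arcuate nucleus (ARC), a nucleus of the mediobasal hypothalamus, were followed in bulk RNA-seq libraries from female mice. The set held 41 genes, chosen by symbol as parts of the class I and class II antigen presentation pathways or as genes that interferons are known to induce. The choice was made with earlier results of these data known, so shares of the set beside those of all genes are description and no test. All 41 were found among the 16640 genes of the table, none was listed at 0 in any of the 12 libraries, and all 41 reached a signal of at least 1 in at least 2 libraries, the minimum set for testing, which 15801 genes met. The signal was taken as an abundance per gene scaled for transcript length and depth, as kallisto gives; the scaling itself was not stated. The genes were ordered by role into class I molecules (4 genes), class I loading and regulation (7), class II presentation (4), interferon signalling factors (5), RNA sensors (4), antiviral effectors (13) and interferon-induced GTPases (4).

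All mice were 27 weeks old and carried floxed alleles of Esr1, which encodes oestrogen receptor alpha. Controls were Esr1fl/fl females fed chow (n = 3) or challenged with a high-fat diet (HFD) lasting 17 weeks (n = 2). Mutants were Esr1Nkx2-1Cre females fed chow (n = 4) or HFD of the same length (n = 3). The Cre recombinase of the mutants is driven by Nkx2-1, a gene active early in ventral forebrain precursors and in some peripheral organs, so deletion is not confined to ARC neurons. The labels name each sample once and do not say that the samples came from separate animals, so the p-values measure the spread between these samples.

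The targeted gene, Esr1, had a signal of 7.29 to 19.8 in control chow and 1.65 to 6.05 in mutant chow, without overlap. In control HFD it was 15.3 and 22.4. The libraries labelled mutant HFD held 10.7, 16.6 and 11.9, inside the control chow range and above every mutant chow library, which goes against their label. In these libraries diet, genotype label and Esr1 signal cannot be told apart. Column totals ran from 922172 to 1254999. Mutant chow replicate 3 listed 1768 genes at 0, the most of the 12 libraries, against 201 to 1019 in the others. Control HFD replicate 1 held choroid plexus markers at a summed signal of 2175, against 28.1 to 74.4 in the other libraries, through Ttr (transthyretin, the main secreted product of choroid plexus epithelium). Counts that changed without either library, and the genes concerned, are given with the comparisons.

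Interferons signal through cell surface receptors and Janus kinases to transcription factors, STAT2 and IRF9 among them, which bind response elements in the promoters of antiviral genes. Class I molecules carry peptides cut by the immunoproteasome and pumped by the TAP transporter to the surface of most nucleated cells. Class II molecules present peptides from endosomes, need the invariant chain CD74, and in brain are largely a product of macrophages and activated microglia, while neurons of the resting brain express little of either class.

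Promoter stretches of 6 of these genes are shown as examples of windows with the interferon response element core (Igtp and Gbp3), with the MHC Y box (H2-D1, H2-Aa and H2-Eb1) or with both (B2m). They come from RefSeq on the GRCm38.p6 build, run 5′ to 3′ on the strand of the gene, and cover 150 bases before the annotated start site and 20 bases from it onward, 170 bases in all. Capitals mark GAAANNGAA, the core of the interferon-stimulated response element, and TTCNNNGAA, the gamma-activated site, on either strand. In B2m and the H2 genes they also mark GATTGG, an inverted CCAAT box that forms the Y box of MHC promoters, on either strand.
Igtp (chr11:58199406-58199575, plus strand): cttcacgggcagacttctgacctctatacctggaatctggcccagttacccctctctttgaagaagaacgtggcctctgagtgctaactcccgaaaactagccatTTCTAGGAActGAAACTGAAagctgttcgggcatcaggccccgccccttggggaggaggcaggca
Gbp3 (chr3:142559894-142560063, plus strand): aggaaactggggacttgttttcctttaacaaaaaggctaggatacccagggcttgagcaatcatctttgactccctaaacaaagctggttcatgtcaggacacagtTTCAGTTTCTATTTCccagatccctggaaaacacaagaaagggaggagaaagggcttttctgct
B2m (chr2:122147537-122147706, plus strand): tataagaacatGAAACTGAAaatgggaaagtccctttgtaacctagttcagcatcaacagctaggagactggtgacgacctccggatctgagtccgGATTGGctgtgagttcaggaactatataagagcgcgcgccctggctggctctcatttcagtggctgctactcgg
H2-D1 (chr17:35262944-35263113, plus strand): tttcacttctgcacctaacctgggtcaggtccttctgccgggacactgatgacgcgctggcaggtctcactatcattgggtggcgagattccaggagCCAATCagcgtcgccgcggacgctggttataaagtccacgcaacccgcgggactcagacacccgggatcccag
H2-Aa (chr17:34287804-34287973, minus strand): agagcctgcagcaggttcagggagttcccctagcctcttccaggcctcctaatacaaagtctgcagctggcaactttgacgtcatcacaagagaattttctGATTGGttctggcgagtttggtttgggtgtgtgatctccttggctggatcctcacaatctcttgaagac
H2-Eb1 (chr17:34305717-34305886, plus strand): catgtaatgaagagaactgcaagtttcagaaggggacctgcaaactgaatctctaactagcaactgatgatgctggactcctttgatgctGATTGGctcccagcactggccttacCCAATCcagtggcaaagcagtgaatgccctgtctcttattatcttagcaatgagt

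Windows of 300 bases around the start site, most of it upstream, were present for 33 of the 41 genes. The response element core was found in 18 of 33 windows (54.5%) and in 9.76% of the 27025 genes with windows of that length. The gamma-activated site was found in 7 of 33 (21.2%) against 9.55%, and GATTGG in 10 of 33 (30.3%) against 18.2%. By role, the core stood in all 4 interferon-induced GTPases, in all 3 RNA sensors with a window, in 8 of 11 antiviral effectors, in 2 of 4 class I molecules (B2m and H2-T23) and in 1 of 4 signalling factors (Stat2), and in none of the 5 class I loading genes and neither of the class II genes with a window. GATTGG stood in all 4 class I molecules, in both class II windows, in 2 of 5 class I loading genes (Tap1 and Psmb9), in Stat2 and in Irgm1, and in no sensor or effector. B2m, H2-T23, Stat2 and Irgm1 thus held both. In B2m the core and GATTGG began 139 and 54 bases before the start site, and in Igtp the gamma-activated site and the core began 45 and 34 bases before it. Tap1 and Psmb9 lie head to head and their windows overlap, so they share sequence. Only the core GAAANNGAA was searched for the response element, so a window without it, such as that of H2-D1, may hold another form. A match is a description of letters and no measure of factor binding.

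In the libraries labelled mutant HFD, genes of this set had lower signals than in mutant chow, with class II genes lowest relative to chow. The log2 difference (HFD against chow, on log2(signal + 1)) was below 0 for 41 of 41 genes, against 53.1% of all 15801 genes tested, and its median was -0.74 against -0.02 for all genes. By limma, 17 of 41 genes (41.5%) were lower at an unadjusted p under 0.05, against 3.94% of all genes, and 0 were higher, against 1.44%. In 20 of 41 (48.8%) every library labelled mutant HFD lay below every mutant chow library, against 4.88% of all genes. None of the 41 passed limma's test after Benjamini-Hochberg adjustment, where 0.019% of all genes did, so no single gene of the set is called here. Without mutant chow replicate 3 the count of 17 became 11, since B2m, Dhx58, H2-Ab1, H2-K1, Ifitm3 and Oasl2 no longer met the unadjusted threshold. The 11 others, Bst2, Cd74, H2-Aa, H2-D1, H2-Eb1, Igtp, Irf9, Psmb8, Psmb9, Tap2 and Xaf1, met it under all 21 alternative settings.

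The mean of log2(signal + 1) over the 41 genes was 4.83, 4.37, 5.21 and 4.51 in the mutant chow libraries and 3.83, 3.92 and 3.90 in those labelled mutant HFD. In control chow it was 3.91, 4.58 and 4.49, and in control HFD 3.61 and 4.32. The mutant chow libraries all lay above those labelled mutant HFD, while control chow replicate 1 fell among the HFD libraries and control HFD replicate 2 within the range of control chow. The libraries labelled mutant HFD were close to each other (SD 0.048, n = 3), where the SD was 0.37 in mutant chow (n = 4), 0.36 in control chow (n = 3) and 0.50 in control HFD (n = 2). Mutant chow replicate 3 held the highest value of 22 of the 41 genes and control HFD replicate 1 the lowest of 16. How often these libraries were extreme over all genes was not counted, so this may not be particular to the set. In bulk tissue, fewer cells of a type and less RNA per cell cannot be told apart.

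**Figure D1:**
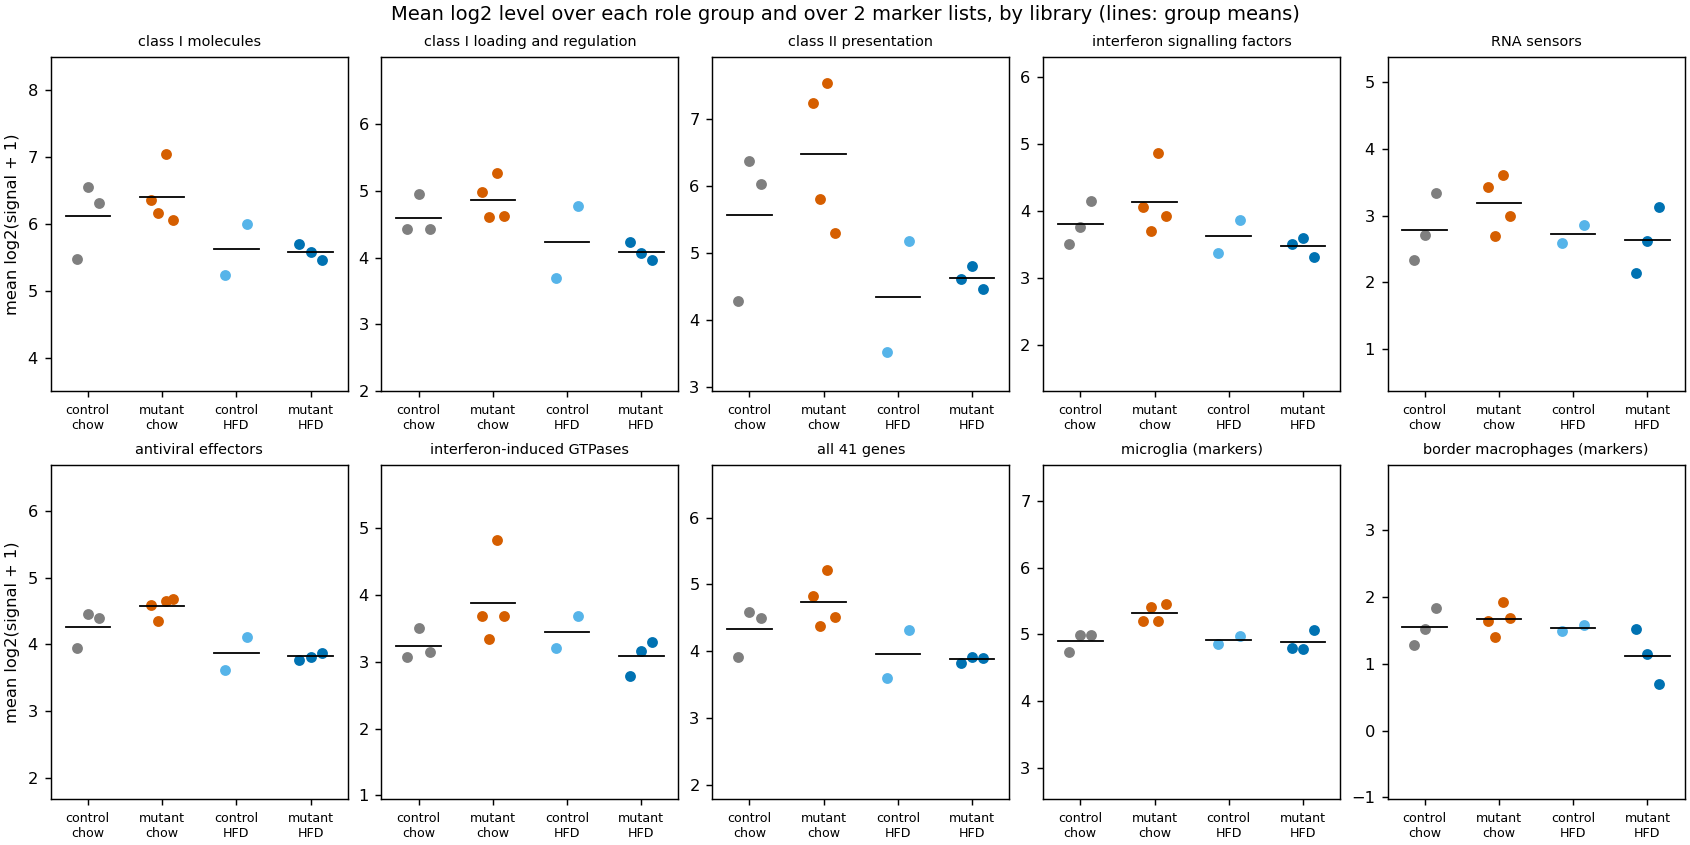
Mean log2(signal + 1) over each role group, over all 41 genes and over the marker genes of microglia and border macrophages (y axes, each spanning 5 log2 units), for each library (points) by group (x axes), with lines at group means. Class II presentation had the widest span between libraries (3.51 to 7.55), and the libraries labelled mutant HFD lay close together at 4.46 to 4.81.

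**Figure D2:**
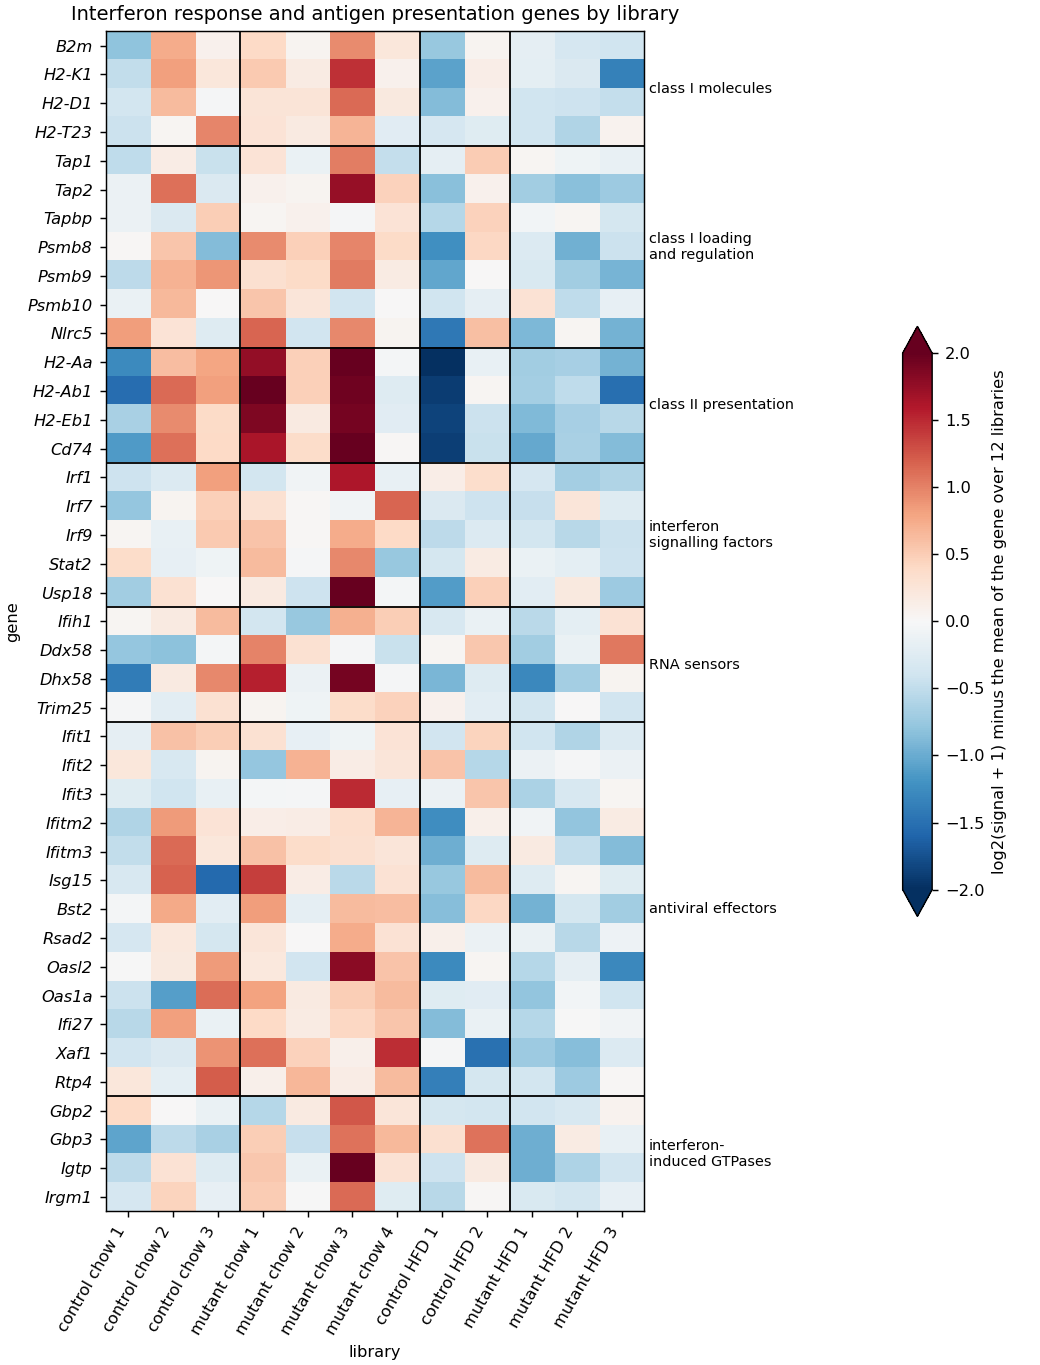
Signal of the 41 genes (rows, ordered by role) in the 12 libraries (columns, by group), as log2(signal + 1) minus the mean of the gene over all 12 libraries. Mutant chow replicate 3 held the highest value of 22 genes, a count not taken over all genes. The class II rows ran from deepest blue in control HFD replicate 1 to deepest red in mutant chow replicates 1 and 3.

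Class II presentation genes stood furthest apart, with a median log2 difference of -1.90 in mutants and all 4 genes lower at an unadjusted p under 0.05. Cd74 (ENSMUSG00000024610, chr18:60803848-60812652) encodes the invariant chain, which guides class II molecules to endosomes. Its signal was 41.6, 201 and 123 in control chow, 289.9, 119, 520.4 and 94.3 in mutant chow, 24.3 and 67.7 in control HFD, and 44.9, 58.6 and 50.2 in the libraries labelled mutant HFD. All 4 mutant chow libraries were above all those labelled mutant HFD, and replicates 1 and 3 of mutant chow stood well above replicates 2 and 4. The mean signal in the libraries labelled mutant HFD was 20% of that in mutant chow. The log2 difference, taken between means of log2(signal + 1) and so not the log of that ratio, was -1.98 ± 0.61 (SE). Its adjusted p was 0.724 by limma with Benjamini-Hochberg adjustment. The same difference in controls was -1.29 ± 0.73, and the interaction, the mutant difference minus the control difference, was -0.68 ± 0.95 with a 95% interval from -2.75 to 1.38.

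H2-Aa (ENSMUSG00000036594, chr17:34282744-34287823) and H2-Ab1 encode the alpha and beta chains of the class II molecule I-A, and H2-Eb1 the beta chain of I-E. The signal of H2-Aa was 14.7, 57.0 and 64.9 in control chow, 128, 51.8, 166 and 36.03 in mutant chow, 8.32 and 33.2 in control HFD, and 22.5, 22.96 and 18.7 in the libraries labelled mutant HFD. For H2-Ab1 the values were 7.16, 50.6 and 40.4 in control chow, 93.9, 31.6, 89.8 and 18.6 in mutant chow, 5.29 and 23.1 in control HFD, and 13.7, 15.6 and 7.25 in mutant HFD. For H2-Eb1 they were 25.3, 78.0 and 52.4 in control chow, 148, 45.3, 154 and 34.0 in mutant chow, 10.4 and 29.5 in control HFD, and 21.2, 24.9 and 27.0 in mutant HFD. As for Cd74, mutant chow replicates 1 and 3 were above all other libraries in each of these genes, and the diets did not overlap in mutants. Means in the libraries labelled mutant HFD were 22.4%, 20.8% and 25.5% of mutant chow, and the log2 differences were -1.85 ± 0.61, -1.94 ± 0.72 and -1.63 ± 0.55 (SE; adjusted p of 0.784, 0.825 and 0.796 by limma). Control chow replicate 1 was lowest of the chow libraries for all 4 class II genes, and with it the control diets overlapped.

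Class I molecules showed smaller differences, with a median of -0.80. B2m (ENSMUSG00000060802, chr2:122147686-122153083) encodes beta-2 microglobulin, the light chain of every class I molecule. Its signal was 233, 678 and 429.5 in control chow, 537, 421, 781 and 476 in mutant chow, 240.1 and 421 in control HFD, and 359, 322 and 307 in the libraries labelled mutant HFD. The mutant groups did not overlap, whereas control chow spanned both diets. The mean signal in the libraries labelled mutant HFD was 59.5% of mutant chow, and the log2 difference was -0.71 ± 0.33 (limma adjusted p = 0.916).

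H2-D1 and H2-K1 encode classical class I heavy chains, whose reads can be shared with close relatives in the H2 family, so their values are uncertain to that extent. The signal of H2-D1 was 174, 351 and 220.5 in control chow, 269.7, 268, 496 and 257 in mutant chow, 123 and 238 in control HFD, and 170.4, 168 and 162 in the libraries labelled mutant HFD. For H2-K1 it was 39.7, 99.5 and 65.6 in control chow, 80.6, 62.6, 155 and 59.3 in mutant chow, 26.0 and 61.7 in control HFD, and 48.6, 45.5 and 21.3 in mutant HFD. In both genes mutant chow replicate 3 was highest and the mutant diets did not overlap. Log2 differences in mutants were -0.89 ± 0.29 for H2-D1 and -1.17 ± 0.43 for H2-K1 (limma adjusted p = 0.784 and 0.825). H2-T23, a non-classical class I gene whose product is seen by natural killer cell receptors, had a low signal of 1.09 to 5.21 in all libraries and a difference of -0.54 ± 0.38.

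Of the class I loading and regulation genes, 3 of 7 were lower in mutants at an unadjusted p under 0.05, and the group median was -1.05. Tap2, which encodes the second subunit of the peptide transporter, had a signal of 34.2, 80.5 and 30.2 in control chow, 39.5, 38.6, 126 and 51.3 in mutant chow, 20.3 and 39.4 in control HFD, and 22.4, 20.4 and 22.2 in the libraries labelled mutant HFD. Its log2 difference in mutants was -1.33 ± 0.43 (limma adjusted p = 0.766). Tap1, its partner subunit, had 9.51, 6.88, 16.7 and 5.24 in mutant chow and 7.88, 7.21 and 6.84 in mutant HFD, a difference of -0.24 ± 0.36 with overlapping groups. The difference between Tap1 and Tap2 was not tested.

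The catalytic immunoproteasome subunits are encoded by Psmb8, Psmb9 and Psmb10. Psmb8 had a signal of 24.7, 35.9 and 12.8 in control chow, 47.7, 34.0, 48.4 and 31.7 in mutant chow, 9.77 and 32.6 in control HFD, and 19.8, 11.9 and 17.6 in mutant HFD. Psmb9 had 8.33, 20.8 and 23.8 in control chow, 15.8, 16.6, 26.7 and 14.1 in mutant chow, 5.58 and 12.5 in control HFD, and 9.90, 7.30 and 6.07 in mutant HFD. Psmb10, highest of its role group by mean signal, had 75.8, 132 and 83.6 in control chow, 124, 99.0, 63.4 and 83.8 in mutant chow, 63.4 and 73.6 in control HFD, and 102, 58.7 and 74.5 in mutant HFD. The mutant diets were apart for Psmb8 and Psmb9 and overlapped for Psmb10, with log2 differences of -1.25 ± 0.40, -1.12 ± 0.38 and -0.23 ± 0.26 (limma adjusted p = 0.779, 0.808 and 0.953). Tapbp (tapasin, which bridges class I molecules to the transporter) had a difference of -0.22 ± 0.25, and Nlrc5, the transactivator of class I genes, -1.05 ± 0.54 at a signal of 0.603 to 8.70. Exons of Psmb9 overlap those of Tap1, and exons of Tap2 and Tapbp overlap other genes of the table (Gm15821 and Zbtb22). The use of strand in counting was not stated, so reads there cannot be divided between the partners with certainty. The Ifit, Ifitm, Oas and Gbp genes also have close relatives among which reads could be split.

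**Figure D3:**
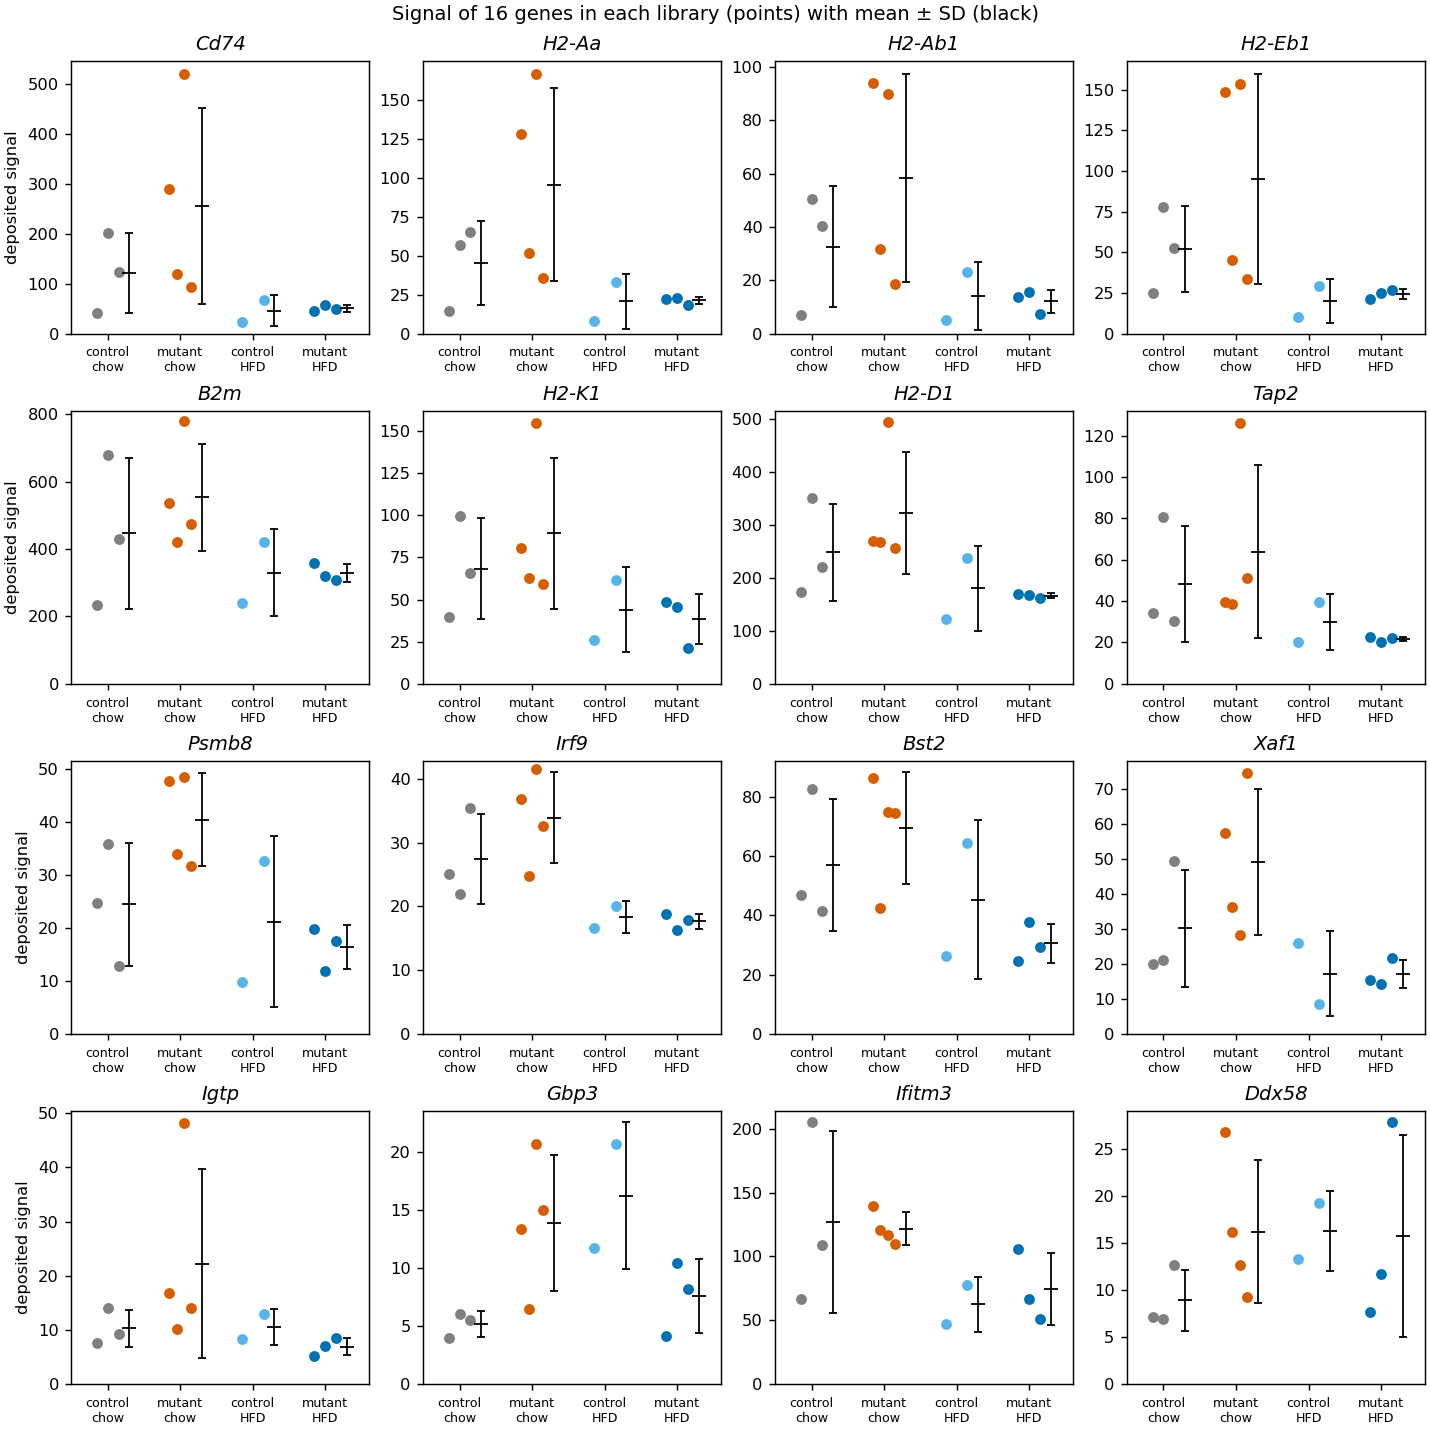
Deposited signal (y axes, from 0) of 16 genes in each library (points) by group (x axes), with the mean and SD of each group in black (n = 3, 4, 2 and 3). For Cd74 the libraries labelled mutant HFD sat between 44.9 and 58.6 and those of mutant chow between 94.3 and 520.4, while for Ddx58 the same groups overlapped.

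Of the signalling factors, Irf9 had the smallest p of the 41 genes in mutants. Irf9 (ENSMUSG00000002325, chr14:55603571-55610030) encodes a DNA-binding partner of STAT2. Its signal was 25.0, 21.9 and 35.4 in control chow, 36.8, 24.8, 41.5 and 32.6 in mutant chow, 16.6 and 20.1 in control HFD, and 18.7, 16.3 and 17.8 in the libraries labelled mutant HFD. Every HFD library lay below every chow library in both genotypes, which held for no class I or class II gene. The log2 differences were -0.89 ± 0.22 in mutants and -0.53 ± 0.27 in controls, with a limma adjusted p of 0.564 and 0.998. Exons of Irf9 overlap Rnf31 on the same strand, so part of its reads could belong to either gene. Irf1, Irf7, Stat2 and Usp18 (a protease that removes ISG15 and restrains type I receptor signalling) had differences of -0.80, -0.51, -0.45 and -0.69 in mutants, with SEs from 0.36 to 0.57, and did not pass at an unadjusted p under 0.05.

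The RNA sensors had differences from -1.47 to -0.13 in mutants, with a median of -0.30. Dhx58 (LGP2, a helicase that tunes the other sensors) had a signal of 0.755, 4.27 and 7.99 in control chow, 12.6, 3.25, 16.5 and 3.57 in mutant chow, 1.46 and 2.88 in control HFD, and 0.893, 1.89 and 3.81 in the libraries labelled mutant HFD. The mutant diets overlapped, and the difference was -1.47 ± 0.64 (limma adjusted p = 0.916). Ddx58 (RIG-I, a sensor of viral RNA ends) had 7.12, 6.90 and 12.6 in control chow, 26.8, 16.2, 12.6 and 9.21 in mutant chow, 13.3 and 19.2 in control HFD, and 7.60, 11.7 and 27.8 in mutant HFD. Its groups overlapped in mutants (-0.13 ± 0.43), and in controls both HFD libraries were above all chow libraries (0.83 ± 0.52). Ifih1 (MDA5) and Trim25 (a ubiquitin ligase that activates RIG-I) had differences of -0.17 ± 0.39 and -0.44 ± 0.26 in mutants.

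Among antiviral effectors, 4 of 13 were lower in mutants at an unadjusted p under 0.05, and the median difference was -0.62. Bst2 (tetherin, which holds budding virions at the membrane) had a signal of 46.9, 82.5 and 41.5 in control chow, 86.4, 42.5, 74.9 and 74.7 in mutant chow, 26.3 and 64.3 in control HFD, and 24.5, 37.7 and 29.4 in the libraries labelled mutant HFD. Xaf1, a pro-apoptotic interferon-induced gene, had 19.9, 21.2 and 49.6 in control chow, 57.5, 36.3, 28.2 and 74.5 in mutant chow, 25.9 and 8.64 in control HFD, and 15.4, 14.1 and 21.6 in mutant HFD. The mutant diets did not overlap in either gene, and the highest mutant chow library was replicate 1 for Bst2 and replicate 4 for Xaf1. Log2 differences were -1.14 ± 0.34 and -1.40 ± 0.43 (limma adjusted p = 0.721 and 0.724).

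Oasl2, which encodes a protein of the oligoadenylate synthetase family, had a signal of 14.01, 16.3 and 26.4 in control chow, 16.6, 10.6, 52.0 and 21.5 in mutant chow, 5.24 and 14.5 in control HFD, and 9.19, 12.4 and 5.20 in the libraries labelled mutant HFD. Its difference of -1.23 ± 0.49 in mutants became -0.81 without mutant chow replicate 3. Ifitm3, which blocks entry of viruses through endosomes, had 66.2, 206 and 109 in control chow, 139.9, 121, 117 and 109.9 in mutant chow, 47.0 and 77.6 in control HFD, and 106, 66.5 and 50.6 in mutant HFD. The diets did not overlap for Ifitm3 in mutants, where the difference was -0.77 ± 0.34, and overlapped in controls, where it was -0.91 ± 0.41 (limma adjusted p = 0.916 and 0.998). At an unadjusted p under 0.05, Ifitm3 passed in 12 of 21 alternative settings in mutants and in 9 of 21 in controls.

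Ifitm2, Ifi27 and Rtp4 were lower at an unadjusted p under 0.05 only when the diets were compared over both genotypes or, for Rtp4, also in controls. Ifitm2, a relative of Ifitm3 with which it can share reads, had 45.7, 127 and 84.6 in control chow, 76.9, 77.7, 88.0 and 113 in mutant chow, 29.0 and 74.6 in control HFD, and 66.2, 39.8 and 78.5 in mutant HFD. Ifi27, highest of its role group by mean signal, had 164, 429 and 223 in control chow, 320.5, 272, 323 and 358 in mutant chow, 133 and 222 in control HFD, and 163, 243 and 231 in mutant HFD. Rtp4, which encodes a chaperone of G protein-coupled receptors, had 11.96, 8.64 and 24.6 in control chow, 10.9, 16.6, 11.2 and 16.1 in mutant chow, 3.30 and 7.71 in control HFD, and 7.58, 5.69 and 10.3 in mutant HFD. Every HFD library lay below every chow library of its genotype for Rtp4, and the diets were apart only in mutants for Ifi27. Differences averaged over the genotypes were -0.65 ± 0.29 for Ifitm2, -0.57 ± 0.23 for Ifi27 and -1.005 ± 0.29 for Rtp4 (limma adjusted p = 0.886, 0.886 and 0.823). Without control HFD replicate 1, Ifitm2 (-0.32) and Ifi27 (-0.39) no longer met the unadjusted threshold in this comparison, and Ifitm2 did not without mutant chow replicate 3 either. Both genes also missed that threshold without mutant HFD replicate 1. Ifitm2 missed it as well when control chow replicate 2 or 3, mutant HFD replicate 2 or mutant chow replicate 4 was left out. Ifitm2 passed in 12 of 21 alternative settings and Ifi27 in 18 of 21. The other 6 effectors, Ifit1, Ifit2, Ifit3, Isg15, Rsad2 and Oas1a, had differences of -0.94 to -0.16 in mutants and of -0.26 to 0.48 in controls. Ifit1, Rsad2 and Oas1a were among the genes without overlap in mutants.

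Interferon-induced GTPases gather on vacuoles that hold pathogens, and their median difference in mutants was -0.70. Igtp (Irgm3) had a signal of 7.53, 14.1 and 9.26 in control chow, 16.7, 10.1, 48.2 and 13.9 in mutant chow, 8.23 and 12.9 in control HFD, and 5.24, 7.02 and 8.41 in the libraries labelled mutant HFD. The mutant diets did not overlap and the difference was -1.33 ± 0.44 (limma adjusted p = 0.784), which became -0.88 without mutant chow replicate 3. In controls the difference was 0.05 ± 0.53. Exons of Igtp overlap Irgm2 on the same strand. Irgm1, highest of its role group by mean signal, had 9.96, 18.0 and 11.4 in control chow, 18.8, 12.7, 29.4 and 10.8 in mutant chow, 8.49 and 13.1 in control HFD, and 10.2, 9.79 and 11.4 in mutant HFD. Its diets overlapped in both genotypes, at -0.63 ± 0.33 in mutants, and Gbp2 had -0.48 ± 0.37.

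Gbp3 (ENSMUSG00000028268, chr3:142560026-142573209), a guanylate-binding protein gene with close relatives beside it, was the only one of the 41 with opposite differences in the genotypes at an unadjusted interaction p under 0.05. Its signal was 3.92, 6.06 and 5.49 in control chow, 13.3, 6.42, 20.7 and 14.96 in mutant chow, 11.73 and 20.7 in control HFD, and 4.16, 10.4 and 8.13 in the libraries labelled mutant HFD. All mutant chow and control HFD libraries were above all control chow libraries, and the diets overlapped in mutants. The log2 difference was 1.45 ± 0.47 in controls and -0.77 ± 0.39 in mutants, and the interaction was -2.22 ± 0.61 with a 95% interval from -3.55 to -0.88 (limma with Benjamini-Hochberg adjustment, adjusted p = 0.999). Without control HFD replicate 2 the difference in controls no longer passed at an unadjusted p under 0.05.

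In controls the diet difference was of the same sign for most of the set and the groups mostly overlapped. It was below 0 for 32 of 41 genes, against 50.7% of all genes, with a median of -0.45 against -0.01. At an unadjusted p under 0.05, 2 genes were lower (Ifitm3 and Rtp4, 4.88%, against 2.1% of all genes) and 1 was higher (Gbp3, 2.44%, against 1.44%). Groups did not overlap for 5 lower genes (Psmb10, Irf9, Ifih1, Rtp4 and Gbp2, 12.2%, against 7.76%) and for 3 higher ones (Ddx58, Ifit3 and Gbp3, 7.32%, against 6.32%). By limma with Benjamini-Hochberg adjustment 0 of the 41 passed, as for 0% of all genes. The class II median was -1.21, from -1.36 for H2-Eb1 to -1.07 for H2-Ab1. The control HFD pair did not agree, since replicate 1 was below replicate 2 for 35 of 41 genes and below every control chow library for 25, where replicate 2 was so for 7. The order of these libraries was not counted over all genes, so it may not be particular to the set. Without control HFD replicate 1, the library with choroid plexus markers, neither Ifitm3 (-0.55) nor Rtp4 (-0.76) met the unadjusted threshold and the median was -0.09. Ifitm3 also missed the unadjusted threshold when control chow replicate 2 or 3, mutant HFD replicate 2 or any single mutant chow library was left out. Without control HFD replicate 2 the median of the set was -0.67. Without control chow replicate 1, the chow library lowest for class II genes, 11 genes were at an unadjusted p under 0.05, and without replicate 3 of that group only Gbp3 was.

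Averaged over the genotypes, the diet difference was below 0 for 38 of 41 genes (53.5% of all genes), with a median of -0.53 against -0.02. At an unadjusted p under 0.05, 17 genes (41.5%) were lower, against 3.69% of all genes, and 0 passed by limma with Benjamini-Hochberg adjustment, as for 0% of all genes. They were H2-K1, H2-D1, Tap2, Psmb8, Psmb9, the 4 class II genes, Irf9, Ifitm2, Ifitm3, Bst2, Oasl2, Ifi27, Xaf1 and Rtp4. This comparison uses the same libraries as those within each genotype, so the lists are not separate evidence. Without control HFD replicate 1, the library with choroid plexus markers, 11 of the 17 no longer met the unadjusted threshold, and the 6 that did were Psmb9, H2-Eb1, Cd74, Irf9, Xaf1 and Rtp4. With mutant chow replicate 3 left out as well, 4 did, Cd74, Irf9, Xaf1 and Rtp4.

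The interaction asks whether the diet difference in mutants departed from that in controls. It was below 0 for 36 of 41 genes (52.7% of all genes), with a median of -0.38 against -0.03. At an unadjusted p under 0.05 only Gbp3 was lower (2.44%, against 1.87%), and 0 genes passed by limma with Benjamini-Hochberg adjustment, as for 0% of all genes. A diet difference particular to the mutants was thus not shown for the 17 genes listed in mutants, at intervals as wide as -3.30 to 1.56 for H2-Ab1. The median was -0.85 without control HFD replicate 1 and -0.02 without control HFD replicate 2.

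**Figure D4:**
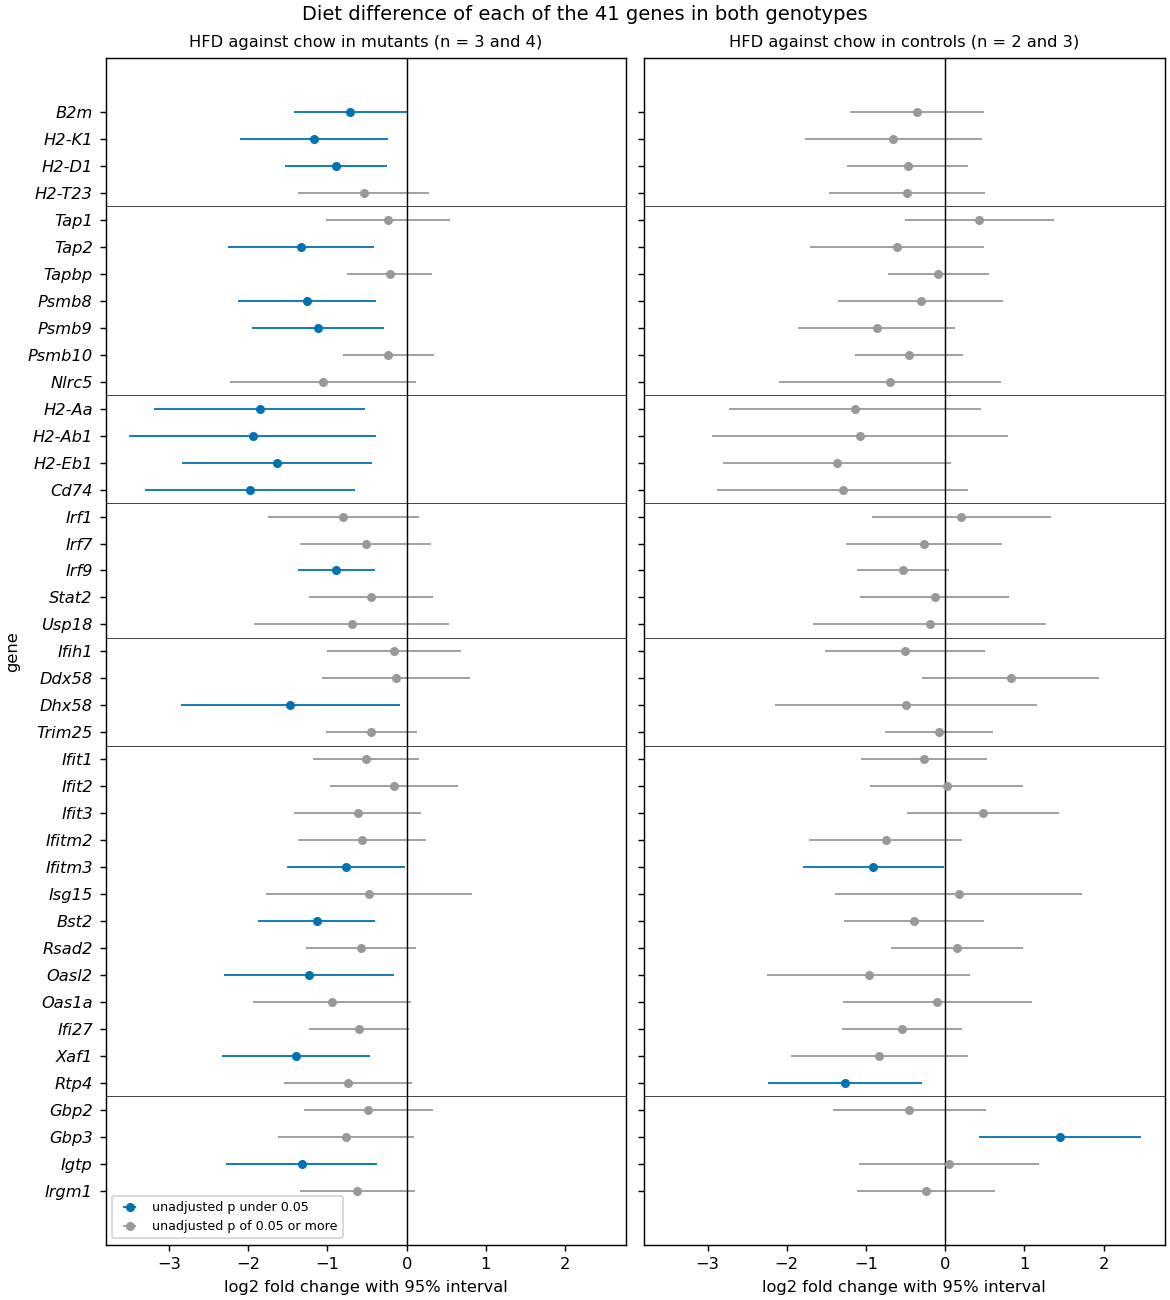
Log2 fold change of HFD against chow with its 95% interval from limma (x axes) for each of the 41 genes (y axis, ordered by role) in mutants (left, 3 against 4 libraries) and controls (right, 2 against 3), in blue where the unadjusted p was under 0.05. All 41 points lie below 0 on the left, from -1.98 for Cd74 to -0.13 for Ddx58, and the points on the right run from -1.36 for H2-Eb1 to 1.45 for Gbp3.

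Between genotypes on chow, most of the set was higher in mutants without passing the test. The log2 difference (mutant against control) was below 0 for only 4 of 41 genes, Psmb10, Ifih1, Ifit1 and Rtp4, against 47.8% of all genes, and its median was 0.36 against 0.01. The class II median was 0.95, with ratios of means from 1.79 for H2-Ab1 to 2.10 for Cd74. Only Gbp3 was higher at an unadjusted p under 0.05 (2.44%, against 2.59% of all genes), at 1.19 ± 0.39 (limma adjusted p = 0.982), and it alone had groups without overlap (2.44%, against 2.54%). After Benjamini-Hochberg adjustment 0 of 41 passed by limma, against 0.019% of all genes. The mutant chow libraries that enter this difference also enter the diet difference in mutants, so the positive values here and the negative ones there share them. Without mutant chow replicate 3 the median was 0.15, and without control chow replicate 2 the count at an unadjusted p under 0.05 was 7.

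On HFD the genotype labels divided the set little. The difference was below 0 for 26 of 41 genes, against 51.5% of all genes, with a median of -0.06 against -0.01. Gbp3 was lower at an unadjusted p under 0.05 (2.44%, against 1.11%), at -1.03 ± 0.47, and no longer was when any of 8 of the 12 libraries was left out. Irf1 and Gbp3 had groups without overlap, lower in mutants (4.88%, against 8.46%), and 0 of 41 passed by limma with Benjamini-Hochberg adjustment, against 0.00633% of all genes. The median was -0.42 without control HFD replicate 1 and 0.27 without replicate 2. For 35 of 41 genes the libraries labelled mutant HFD overlapped those of control chow, and for the other 6 they lay below them. That overlap was not counted over all genes, so it is not read as a trait of the set.

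Other genes of the pathways, 107 listed, were looked up as well. Of these 94 were in the table and 92 met the minimum. At an unadjusted p under 0.05, 19 of 92 (20.7%, against 3.94% of all genes) were lower in mutants on HFD and 0 were higher, and the difference was below 0 for 82 with a median of -0.53. In controls 4 (4.35%) were lower and 1 (1.09%) was higher, against 2.1% and 1.44% of all genes. Averaged over genotypes 16 (17.4%) were lower, against 3.69%, and in the interaction 3 (3.26%) were, against 1.87%. On chow 11 (12%) were higher in mutants, against 2.59%, and on HFD 0 differed by genotype, where 1.11% of all genes were lower. None of the 92 passed by limma with Benjamini-Hochberg adjustment in any of the 6 comparisons.

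Genes upstream of the set were followed in the same way. The type I receptor genes Ifnar1 and Ifnar2 had log2 differences of -0.18 ± 0.22 and -0.29 ± 0.22 in mutants, and the type II receptor genes Ifngr1 and Ifngr2 -0.34 ± 0.17 and 0.20 ± 0.20. The kinase genes Jak1 and Tyk2 had 0.15 ± 0.17 and -0.66 ± 0.31. Ciita, the transactivator of class II genes, had a signal of at most 2.03 in any library and a difference of -0.14 ± 0.43. The interferon genes themselves were not analysed here.

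Of the other pathway genes with the smallest p, Ctss (cathepsin S, which trims the invariant chain) had a signal of 76.7 to 131 in control chow, 167 to 200.2 in mutant chow, 81.5 and 97.6 in control HFD, and 81.7 to 111 in the libraries labelled mutant HFD. Mutant chow stood apart from all other groups, and the log2 difference in mutants was -0.99 ± 0.19 (limma adjusted p = 0.297). Its difference between genotypes on chow was 0.78 ± 0.19 (adjusted p = 0.803 by limma). Tgtp1, a GTPase of the Igtp family, had a signal of 0.00053 to 3.49 in control chow and of 1.48 and 2.30 in control HFD. It had 2.66 to 13.9 in mutant chow and at most 0.29 in mutant HFD, a difference of -2.63 ± 0.54 (limma adjusted p = 0.397). Its signal was low outside mutant chow, so its differences rest on the mutant chow libraries and on values near 0. Gbp6, a relative of Gbp3, differed by 1.75 ± 0.59 in controls and by -0.92 ± 0.49 in mutants, with an interaction of -2.67 ± 0.77 (limma adjusted p = 0.999). Tgtp1 and Ctss had interactions of -3.20 ± 0.84 and -0.76 ± 0.30. In controls Ifitm1 and Tlr3 (an endosomal RNA receptor) had -1.63 ± 0.64 and -0.82 ± 0.32, and averaged over the genotypes Tlr3 and Uba7 (the enzyme that activates ISG15) had -0.79 ± 0.21 and -1.29 ± 0.39.

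Marker genes of immune cells moved in part with the set. All 11 microglial markers were in the table and none was at 0, and their summed signal was 401 to 577 in control chow, 708 to 751 in mutant chow, 421 to 549 in control HFD, and 433 to 538 in the libraries labelled mutant HFD. Mutant chow thus lay above every other library, where the class II mean of mutant chow replicates 2 and 4 lay within the control chow range. In mutants 10 of 11 microglial markers had a diet difference below 0 and 5 were lower at an unadjusted p under 0.05, with a median of -0.43, and in controls the median was -0.01. Of 6 border macrophage markers 4 were in the table, and their sum was 6.57 to 20.4 in control chow, 13.96 to 75.3 in mutant chow, 9.92 to 16.1 in control HFD and 4.29 to 16.8 in mutant HFD. The highest sum came from mutant chow replicate 3, which had 73.5 of Cbr2. Lyve1 was at 0 in 4 libraries and Cd163 in 2. The part of these cells in the results was not tested.

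Of 7 lymphocyte markers 5 were in the table, each of the 5 at 0 in at least 1 library. They summed to 3.52 to 20.1 in control chow, 3.17 to 18.5 in mutant chow, 1.03 and 4.22 in control HFD, and 2.10 to 5.78 in mutant HFD. By mean log2 level they were highest in mutant chow replicate 1. Of 6 markers of blood monocytes and granulocytes 1 was in the table, Ccr2, at a signal of at most 2.31, reached in mutant chow replicate 1. Red blood cell markers summed to 645 to 1684 in control chow, 1573 to 3178 in mutant chow, 1821 and 1987 in control HFD, and 1173 to 4068 in mutant HFD. Endothelial markers summed to 143 to 192 in control chow, 124 to 293 in mutant chow, 93.8 and 160.4 in control HFD, and 134 to 167 in mutant HFD. In mutants 7 of 8 had a diet difference below 0 (median -0.18), and 0 differed at an unadjusted p under 0.05. In controls 6 of 8 were below 0 (median -0.46), and 1 was lower at that threshold. The 6 markers of arcuate neurons, which define the labelled tissue, were above 0 in every library. They summed to 2895 to 6448 in control chow, 3408 to 6991 in mutant chow, 1684 and 5395 in control HFD, and 2978 to 3650 in mutant HFD. By mean log2 level, control HFD replicate 1 was lowest of all libraries for arcuate neuron, endothelial, mural, meningeal fibroblast and tanycyte markers. It was highest for neuron, astrocyte and choroid plexus markers. The diet difference in mutants was below 0 for all 6 arcuate neuron markers (median -0.50) and for all 6 oligodendrocyte markers (median -0.66), and 1 of these 12 was at an unadjusted p under 0.05. For markers of mural cells, meningeal fibroblasts, astrocytes, neurons and tanycytes the medians were 0.096, -0.24, 0.03, 0.26 and -0.32. In controls the median diet difference was 0.32 for oligodendrocyte markers, with 0 of 6 below 0, and -0.27 for arcuate neuron markers. Between genotypes on chow these 2 lists had medians of 0.66 and 0.29, and in the interaction -1.02 and -0.27.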

How the data were processed

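Bulk RNA-seq of microdissected ARC was read from 12 libraries, 1 column each, grouped by the genotype and treatment labels, and 0 sample columns were left unused. Per the labels, total RNA was made into NEBNext Ultra II libraries. Per their methods, the authors used kallisto in gene mode against the transcriptome of the mm10 build, and the submitters' processing notes name kallisto, sleuth and mm10, with versions not given in the sources used here. The deposited values are a signal per gene whose unit and scaling were not stated. They were taken as abundances scaled for length and depth, as kallisto gives, because they are decimals with column totals near those of TPM but unequal. Depth is unknown, so no counting interval is given, and a scaling between libraries that differs from the one assumed would move all genes of a library together.

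Values were taken as log2(signal + 1), which shrinks the differences of low genes, and genes with a signal of at least 1 in at least 2 libraries (15801) were fitted in limma 3.58.1 (R 4.3.3) with 1 mean per group over all 12 libraries, a mean-variance trend, two-sided tests and Benjamini-Hochberg adjustment over all genes tested. The 6 contrasts were HFD against chow in mutants, in controls and averaged over genotypes, the interaction, and mutant against control on each diet. The likelihood-ratio test of sleuth that the study used needs input not used here. On simulated data for HFD against chow in mutants (15599 genes), 16 of 50 genes changed 2-fold (32%), 47 of 50 changed 4-fold (94%), 48 of 50 changed 8-fold and 48 of 50 changed 16-fold (96% each) were called, with 13 false calls over the whole table. In the simulation each gene varied independently, and no library was shifted for many genes together. Low genes were not among those changed. The shares called therefore need not hold for the libraries used here. Positions are from GENCODE M21 (GRCm38) and promoters from RefSeq.

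The 41 genes, the lists of other pathway genes and of markers, and the tests were chosen with earlier results of these data known. All 41 genes are named. Values per library are given for those at an unadjusted p under 0.05 in a diet contrast or between genotypes on chow, and for the highest gene by mean of each role. Receptors, kinases and Ciita, and up to 3 other pathway genes per contrast with the smallest p, are also named, and a gene that this rule covers is not reported here. Alternatives were another normalisation, rescaled columns, pseudocount, filters, no trend, array weights, only the groups compared, and each library left out. Leaving out mutant chow replicate 3 and control HFD replicate 1 together was added after the data were seen.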

Additional observations from a re-analysis of the deposited data

Results flagged for a closer look

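Within mutant chow, the group of 4 libraries, 5 of 41 genes had replicate 3 further from the others than Dixon's test allows, and in all 5 it was the highest. H2-D1 was 495.7 there against 257 to 269.7 in the other replicates, Tap2 126.3 against 38.6 to 51.3, Irf1 64.3 against 15.5 to 19.3, Usp18 35.8 against 5.62 to 9.07, and Ifit3 60.2 against 18.4 to 20.3. The test was run on the signal itself, not on log2 values. Chance alone marks about 1 in 20 such groups where values are normally spread and genes vary independently, which was not shown here. The test was not run over all genes, so the 5 are not read as a trait of the set. Mutant chow replicate 3 also had the most genes at 0 and the highest summed signal of border macrophage markers. The part of either in these values was not tested.

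Gbp3 was marked because its diet difference departed between the genotypes, by -2.22 on the log2 scale at an unadjusted p under 0.05. It was higher on HFD in 2 of 2 control libraries than in any control chow library. It did not pass limma's test after Benjamini-Hochberg adjustment (adjusted p = 0.999, and 0.907 to 1.00 under the alternatives).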

How the results depend on the processing

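Of 839 values for single genes under 21 alternatives, covering the 40 pairs of gene and contrast at an unadjusted p under 0.05, 737 stayed on their side of that threshold, 102 no longer passed it, and 0 changed sign. Dhx58 gave no value where a mean of at least 5 was required. In each contrast 0 of 41 genes passed after adjustment under every alternative.

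With 1 library left out at a time, the count at an unadjusted p under 0.05 in mutants (17) ran from 11, without mutant chow replicate 3, to 19, without control chow replicate 2. In controls (3) it ran from 1, without control chow replicate 3, to 12, without control HFD replicate 2, with 11 without control chow replicate 1. Averaged over genotypes (17) it ran from 6, without control HFD replicate 1, to 21. In the interaction (1) it ran from 1 to 3, the latter without control HFD replicate 1, and was 2 without control chow replicate 2 or 3, mutant chow replicate 2 or mutant HFD replicate 3. For genotype on chow (1) it ran from 1 to 7, without control chow replicate 2, with 3 without control chow replicate 3 or mutant chow replicate 4 and 2 without mutant chow replicate 2 or either control HFD library. For genotype on HFD (1) it was 2 without mutant chow replicate 3 or control HFD replicate 1, 1 without mutant chow replicate 2 or mutant HFD replicate 2, and 0 without any other single library. Medians ran from -0.67 to -0.091 in controls, from -0.85 to -0.018 in the interaction and from -0.42 to 0.27 for genotype on HFD, the extremes coming from the control HFD libraries, so the last had no stable sign. With 1 control HFD library left, that library was assumed to vary like the other groups.

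For genotype on HFD, quantile normalisation, no filter, a pseudocount of 0.1 and array weights each gave 0 genes. For genotype on chow, rescaled columns, only the groups compared and array weights each gave 2. Rescaled columns gave 2 in the interaction, and only the groups compared gave 1 in controls. With mutant chow replicate 3 and control HFD replicate 1 both left out, counts were 14 in mutants, 4 averaged over genotypes, 5 in the interaction, 2 for genotype on chow and 3 for genotype on HFD, and medians were -0.091 in controls and -0.42 for genotype on HFD. The causes were not tested. No paired fit was made, since the sample labels give no replicate numbers. The column headers hold a number that counts the libraries within each group and an F number, which is the sample title. Nothing given ties either number to a litter, batch or day. The precision is limited by groups of 2 to 4 libraries.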
